A study of Mus musculus with 4 samples.

Results

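The regions described here are the 4 stretches of the mouse genome that hold the T cell receptor alpha and delta genes (Tcra/Tcrd), the T cell receptor beta genes (Tcrb), the T cell receptor gamma genes (Tcrg) and the immunoglobulin lambda light chain genes (Igl). In coordinates of the mm8 build they are chr14:51000001-55500000, chr6:40000001-42000000, chr13:18500001-20000000 and chr16:18500001-20000000. Each region is every bin between these bounds, whatever its reads, which gives 1900 bins of 5 kb, of 492496 such bins on the autosomes. The number of bins is 900 for Tcra/Tcrd, 400 for Tcrb, 300 for Tcrg and 300 for Igl. The annotation at hand is of another build (GRCm38), so no gene segment was placed on the reads, and the region names could be checked only as far as the chromosome: RefSeq lists the segments of each locus on the same chromosome as its region. No sequence of mm8 was at hand, and none is printed.

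Antigen receptor genes are assembled in lymphocytes from separate variable (V), diversity (D) and joining (J) segments by the RAG1 and RAG2 recombinase, and the joined exon is spliced to a constant (C) segment. Alpha pairs with beta, and gamma with delta, to form the receptors of the main T cell classes. Lambda is the lesser of the light chains of mouse B cells, and light chains are rearranged after the heavy chain. The delta genes lie inside the alpha locus, and joining of alpha segments removes them. The RefSeq table of GRCm38 lists 119 V, 53 J and 2 C segments for Tcra/Tcrd, pseudogenes aside, 22 V, 13 J and 2 C for Tcrb, 7 V, 4 J and 4 C for Tcrg, and 3 V, 3 J and 3 C for Igl. The same table has trypsinogen genes such as Prss1 and Prss2 between the beta segments, Amph and Stard3nl beside the gamma segments, and Hira before the lambda segments.

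Total histone H3, which is found in nucleosomes along the whole genome, was measured by ChIP-seq in 4 libraries, with 1 library per group. One came from V6.5 embryonic stem (ES) cells of C57BL/6-129 background without treatment. The others came from V6.5 ES cells given 10 uM of the TGF-beta inhibitor SB431542 for 24 h, myotubes of the myoblast line C2C12 after 48 h in 2% horse serum with selenium, transferrin and insulin, and the pro-B line 38B9 in RPMI medium with 10% fetal calf serum. Both ES cultures had been passaged off feeder fibroblasts. Each cell type stands on 1 line, and the labels give a genetic background for the ES line only. No input library was used here: the number of DNA copies and the H3 on each copy cannot be told apart. Since a group is 1 library, nothing was tested and no difference has a replicate check. Total H3 gives no expression, so the cell types could not be checked against marker genes. The SB431542 library came from run 100804 and the other 3 from run 100623, so treatment and run cannot be told apart.

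Values are counts of distinct read positions, at most 1 per position and strand, from reads with 1 reported place. The libraries held between 12432118 (myotubes) and 13469179 (SB431542) such autosomal positions. A level is the mean count per 5 kb bin divided by the median 5 kb bin of the same chromosome in the same library, and a ratio is the quotient of 2 levels. This removes shifts of whole chromosomes between the lines. Intervals are exact conditional binomial intervals (95%) and take in only the error of counting. Reads amplified by PCR and lacking molecular identifiers need not be independent molecules. The comparisons with untreated ES cells share that library.

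Of the 4 regions, the gamma region had the highest pro-B level for its chromosome and the highest ratio to untreated ES. It held 7932 positions in untreated ES cells, 8533 with SB431542, 6965 in myotubes and 9661 in pro-B cells, which are levels of 0.908, 0.957, 0.844 and 1.22. Pro-B cells had the only level above 1 in this region. The ratio to untreated ES cells was 1.34 in pro-B cells (1.30 to 1.38), 0.929 in myotubes (0.899 to 0.959) and 1.05 with SB431542 (1.02 to 1.09). The lambda region had 6997, 7272, 6188 and 8360 positions in the same order, and levels of 0.795, 0.808, 0.728 and 0.950. Its pro-B ratio was 1.19 (1.16 to 1.23), its myotube ratio 0.915 (0.885 to 0.948) and its SB431542 ratio 1.02 (0.984 to 1.05). The intervals do not show how common such ratios are. Of 9282 autosomal steps of 250 kb, 31.2% had a pro-B ratio of at least 1.175. No share was computed for stretches as long as the regions.

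The beta region was also higher in pro-B cells, while the alpha and delta region was not. Tcrb held 9612 positions in untreated ES cells, 10043 with SB431542, 9762 in myotubes and 10815 in pro-B cells, at levels of 0.839, 0.865, 0.892 and 1.05. The pro-B ratio was 1.26 (1.22 to 1.29), the myotube ratio 1.06 (1.03 to 1.09) and the SB431542 ratio 1.03 (1.00 to 1.06). Tcrb was the only region of the 4 with a myotube ratio above 1. Tcra/Tcrd held 20129, 20051, 16768 and 18888 positions, at levels of 0.790, 0.771, 0.680 and 0.765. Its ratio was 0.968 in pro-B cells (0.949 to 0.988), 0.861 in myotubes (0.844 to 0.879) and 0.977 with SB431542 (0.958 to 0.996). Set to the total of chromosome 14 in place of its median bin, the pro-B ratio of Tcra/Tcrd was 0.891.

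**Figure D1:**
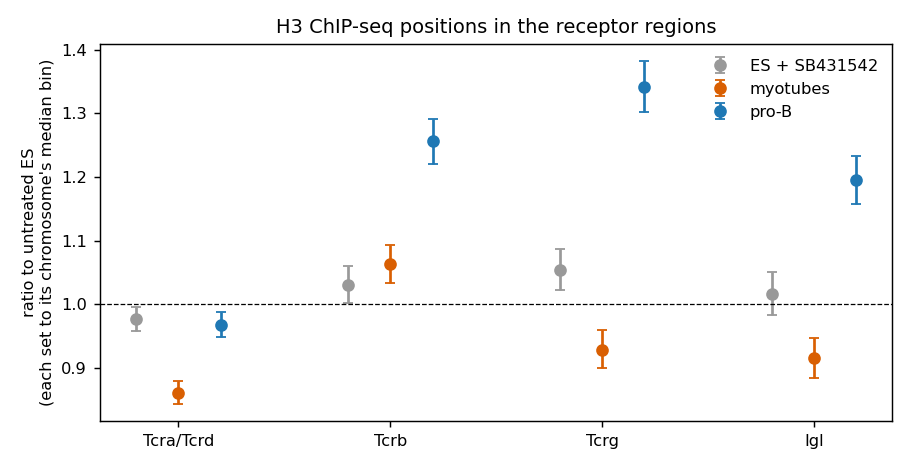
Ratio of the level of each region (x axis) to untreated ES cells (y axis, no unit), with 1 point per library and bars for the 95% counting interval. Pro-B cells lie above 1 in Tcrb (1.26), Tcrg (1.34) and Igl (1.19) and just below 1 in Tcra/Tcrd (0.968), where myotubes are at 0.861.

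Bins of 5 kb were compared by a rule of size, a level at least 2-fold higher or lower, in bins with a mean of at least 10 positions over the 4 libraries. Of the 1900 bins 1490 passed this minimum: 638 of Tcra/Tcrd, 343 of Tcrb, 266 of Tcrg and 243 of Igl. The 410 others lie mostly in Tcra/Tcrd (262), and 97 bins had no read in any library. In pro-B against untreated ES cells 98 bins of the 4 regions were called higher (6.58%) and 29 lower (1.95%), where the rule called 5.18% and 2.35% of 433637 autosomal bins. The regions as a group thus stood near the autosomal share, but they differed among themselves. Tcrg had 33 bins higher (12.4%) and 2 lower, Igl 20 higher (8.23%) and 5 lower, and Tcrb 27 higher (7.87%) and 0 lower. Tcra/Tcrd had 18 higher (2.82%) and 22 lower (3.45%), so that its share of higher bins was below that of the autosomes. The median log2 ratio was 0.31 in Tcrg, 0.28 in Tcrb, 0.19 in Igl and -0.11 in Tcra/Tcrd, against 0.05 over all autosomal bins. With chromosome totals in place of medians, 72 bins were higher (4.83%, against 3.56% of autosomal bins) and 44 lower (2.95% against 3.84%). With autosomal totals 73 were higher (4.90% against 3.65%) and 37 lower (2.48% against 4.31%). A bin holds few positions (a median of 25.7 on chromosome 6 in pro-B cells), so counting error is wide for single bins.

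In myotubes against untreated ES cells the regions had 9 bins higher (0.604%) and 38 lower (2.55%), against 1.58% and 1.64% of the autosomal bins. The lower bins were 19 in Tcra/Tcrd (2.98% of its bins past the minimum), 12 in Tcrg (4.51%), 6 in Igl (2.47%) and 1 in Tcrb (0.29%). Of the higher ones, 6 lay in Tcrb (1.75%). The SB431542 library had 10 bins higher (0.671%) and 13 lower (0.872%) than untreated ES, near the autosomal 0.890% and 0.770%. Its 4 median log2 ratios lay between -0.03 and 0.10. Myotubes against pro-B cells gave 17 bins higher (1.14%) and 118 lower (7.92%), where the autosomes had 2.65% and 5.76%. With chromosome totals 28 were higher (1.88% against 4.07% of autosomal bins) and 87 lower (5.84% against 4.25%). By chromosome medians, the 118 lower bins were 43 in Tcrg (16.2% of its bins past the minimum), 27 in Igl (11.1%), 33 in Tcra/Tcrd (5.17%) and 15 in Tcrb (4.37%). The shares of Tcra/Tcrd and Tcrb were thus below the autosomal 5.76%. The region ratios of myotubes to pro-B cells were 0.890 (Tcra/Tcrd), 0.847 (Tcrb), 0.693 (Tcrg) and 0.766 (Igl).

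**Figure D2:**
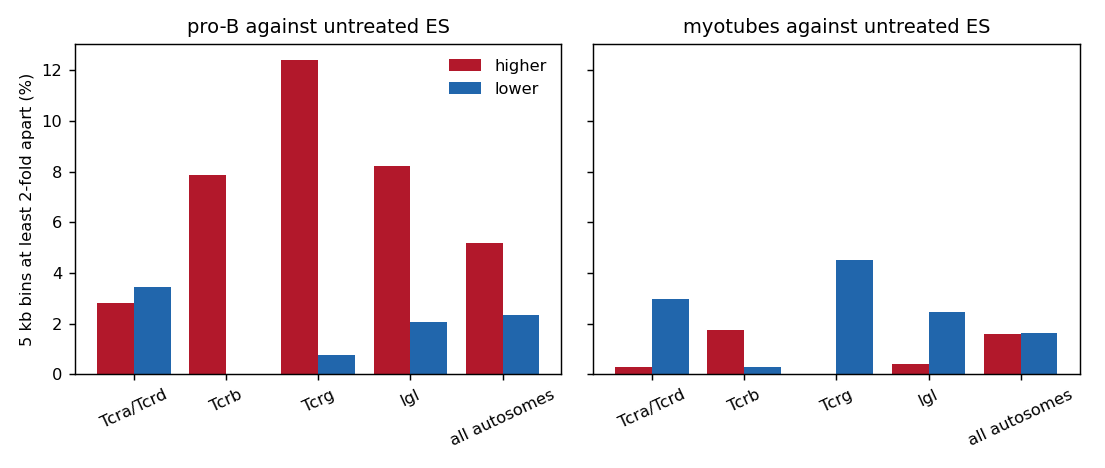
Share of 5 kb bins (y axis, percent of bins past the minimum) at least 2-fold higher (red) or lower (blue) than in untreated ES cells, by region and over all autosomes, for pro-B cells (left) and myotubes (right). In pro-B cells Tcrg has 12.4% of its bins higher against 5.18% over the autosomes, and Tcra/Tcrd has 2.82%.

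Along the gamma region the pro-B excess was largest in a part near the middle. The pro-B ratio to untreated ES was above 1 in 26 of the 29 ranked steps of 50 kb. Steps of 50 kb were ranked where they averaged at least 100 positions over the libraries, which 165 of the 190 steps of the 4 regions and 29 of the 30 of Tcrg did. Across the 29 steps Pearson's r of the log2 levels was 0.959 between the ES libraries, 0.949 between myotubes and untreated ES and 0.537 between pro-B cells and untreated ES. Across all 30 steps it was 0.973, 0.946 and 0.654. The step below the minimum, chr13:19250001-19300000, is where myotubes were farthest from untreated ES, with 23 against 80 positions, or 0.304 times (0.183 to 0.489). These are descriptions over neighbouring steps that share mappability. The step chr13:19150001-19200000 held 278 positions in untreated ES, 293 with SB431542, 238 in myotubes and 737 in pro-B cells. Its pro-B ratio of 2.92 (2.54 to 3.36) was reached by 41 of 45957 autosomal steps of 50 kb, or 0.0892%, this step included. It was the highest pro-B ratio among the 165 ranked steps of the 4 regions. The next step, chr13:19200001-19250000, had 128, 113, 87 and 295 positions, a pro-B ratio of 2.54. At chr13:19400001-19450000 the counts were 327, 341, 260 and 604 and the ratio 2.03.

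The part chr13:19150001-19450000 was drawn after this profile had been seen, and its values are a description. It held 1274 positions in untreated ES cells, 1292 with SB431542, 980 in myotubes and 2552 in pro-B cells. The pro-B level there was 1.61 against 0.729 in untreated ES, a ratio of 2.21 (2.06 to 2.36). In the rest of the Tcrg region the ratio was 1.18 (1.14 to 1.22). The myotube ratio was 0.814 in the part and 0.951 outside it. Set to the autosomal total in place of the chromosome median, the pro-B ratio of the part was 2.02 (1.89 to 2.16). Within the part, 8 neighbouring 5 kb bins at chr13:19165001-19205000 were all called higher in pro-B cells, with 225, 220, 184 and 679 positions, or 3.32 times the ES level (2.85 to 3.88). Another run of 45 kb, chr13:19385001-19430000, with 7 called bins, was at 2.37 times (2.06 to 2.73), with 294, 321, 253 and 632 positions. The run chr13:19295001-19315000 was at 2.16 times. The bins of a run, here and in the other regions, were chosen by this same ratio. The fold of a run thus follows in part from the choice, and its interval does not cover that.

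Windows of 1 kb picked out narrower places. A window was called for a library if it had 20 or more positions there and, after scaling, no less than 3 times the positions of any other library. The pro-B library had 26 such windows among the 9500 of the 4 regions (0.274%), where 0.171% of all autosomal windows were called. Of these, 15 lay in the 1.5 Mb of Tcrg, 5 in the 4.5 Mb of Tcra/Tcrd, 4 in the 1.5 Mb of Igl and 2 in the 2 Mb of Tcrb. The shares of Tcra/Tcrd and Tcrb were thus below that of the autosomes. In Tcrg, the window chr13:19424001-19425000 had 51 pro-B positions against 12, 8 and 8 in untreated ES, SB431542 and myotubes, and chr13:19198001-19199000 had 42 against 6, 8 and 5. All 15 lay inside the part just described. Myotubes had none in the 4 regions, where 0.00487% of autosomal windows were called for that library, and neither had either ES library.

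**Figure D3:**
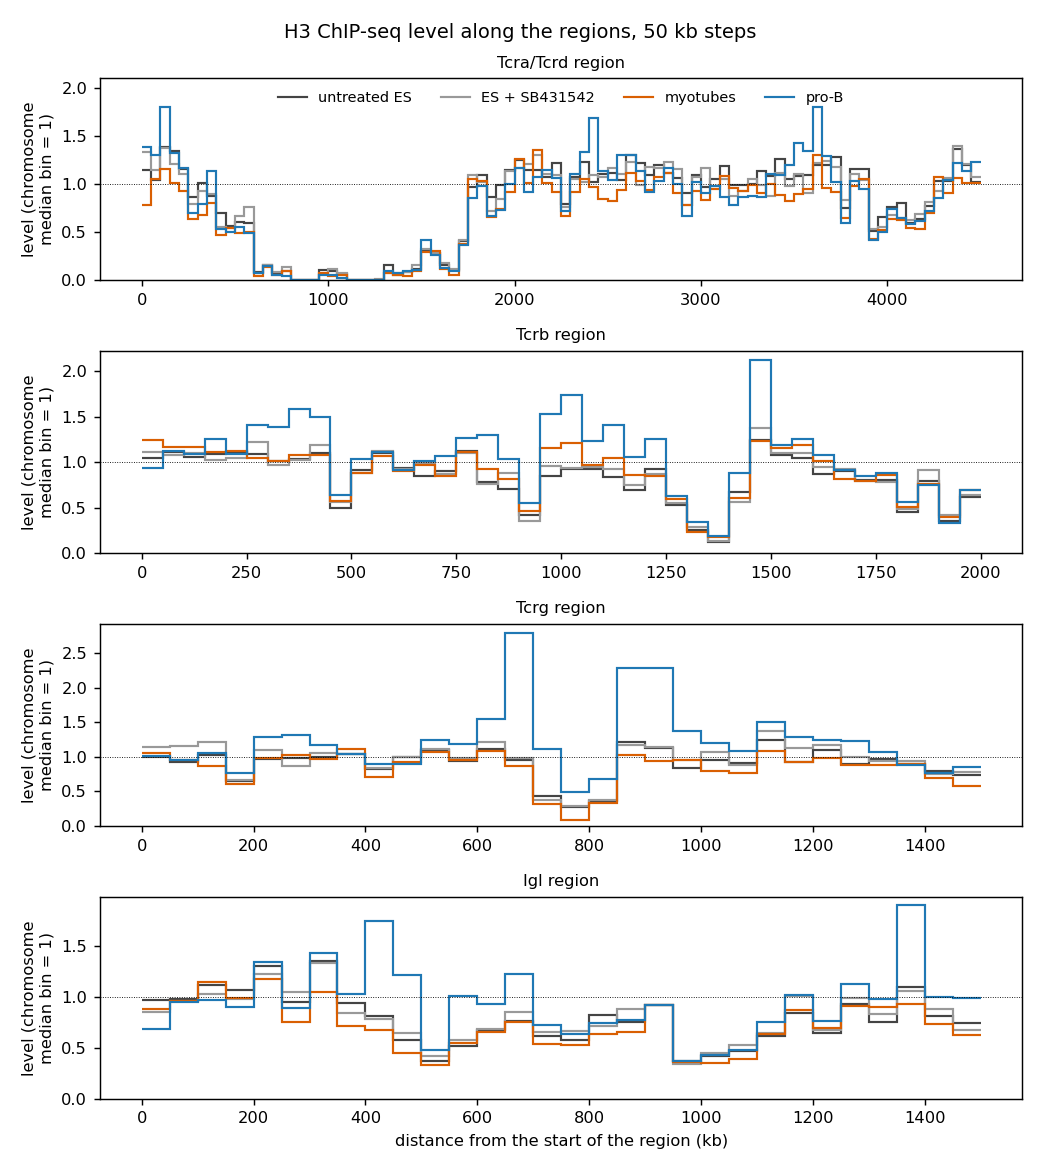
Level in 50 kb steps (y axis, the median 5 kb bin of the chromosome set to 1) along each region (x axis, kb from the start of the region), with 1 line per library. The pro-B line stands apart in the middle of Tcrg (737 against 278 positions at the highest step) and in several steps of Tcrb and Igl. It does so at few places of Tcra/Tcrd, where all 4 libraries share a stretch with few 1-place reads.

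Reads with 2 reported places were counted as well, since receptor segments occur in similar copies. Whether such reads came from receptor segments was not tested, as no segment was placed on the reads. Such a read is listed at both places, so it does not tell which copy it came from. Their distinct positions were set to the same chromosome medians as above. In the whole Tcrg region they numbered 697 in untreated ES, 669 with SB431542, 440 in myotubes and 1153 in pro-B cells. The ratio was 1.82 in pro-B cells (1.66 to 2.00), 0.668 in myotubes (0.591 to 0.753) and 0.941 with SB431542 (0.845 to 1.05). In the part chr13:19150001-19450000 the counts were 446, 422, 235 and 947, a pro-B ratio of 2.34 (2.09 to 2.62), close to the 2.21 of reads with 1 place. The myotube ratio there was 0.557 (0.474 to 0.654). Igl had 1039, 1087, 923 and 1445 such positions, a pro-B ratio of 1.39 (1.28 to 1.51). Set to the 2-place total of the chromosome, the pro-B ratio was 1.65 in Tcrg. In Tcrb the pro-B ratio was 1.21 (1.12 to 1.30), or 1.06 (0.986 to 1.15) by that total, and in Tcra/Tcrd 0.903 (0.865 to 0.944).

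One stretch of the gamma region had no 1-place read in myotubes. From 19241907 to 19279923 on chromosome 13 (38.0 kb) myotubes had 0 such positions, against 62 positions in untreated ES, 64 with SB431542 and 116 in pro-B cells. The ends of the stretch were set by the absence of myotube reads, so the 0 follows from the choice and no fold is given. Reads with 2 places were still listed there in myotubes, at 73 positions against 142, 123 and 254, a ratio of 0.544 (0.404 to 0.726) to untreated ES. The stretch lies inside the part of Tcrg where the pro-B excess was largest. By the same rule (more than 5 kb without a 1-place read, and at least 15 positions in each other library) the autosomes held 89 such stretches in myotubes. This one was the fourth longest. It was the only one of the 4 regions in that library.

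Pro-B cells had 1 such stretch in the 4 regions, of 64 on the autosomes. It lay at chr13:19874955-19880531 (5.58 kb), outside the part with the largest excess. There were 36 positions in untreated ES, 46 with SB431542, 26 in myotubes and 0 in pro-B cells. The ends were again set by the missing reads. No such stretch was found in pro-B cells within Tcra/Tcrd, Tcrb or Igl. The rule counts only stretches with no 1-place read at all. The longest stretch without a 1-place pro-B read in Tcrb, chr6:40894368-40929139, had only 2, 4 and 6 such positions in the other libraries. By 2-place reads those libraries had 180, 174 and 192 positions there and pro-B cells 258.

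**Figure D4:**
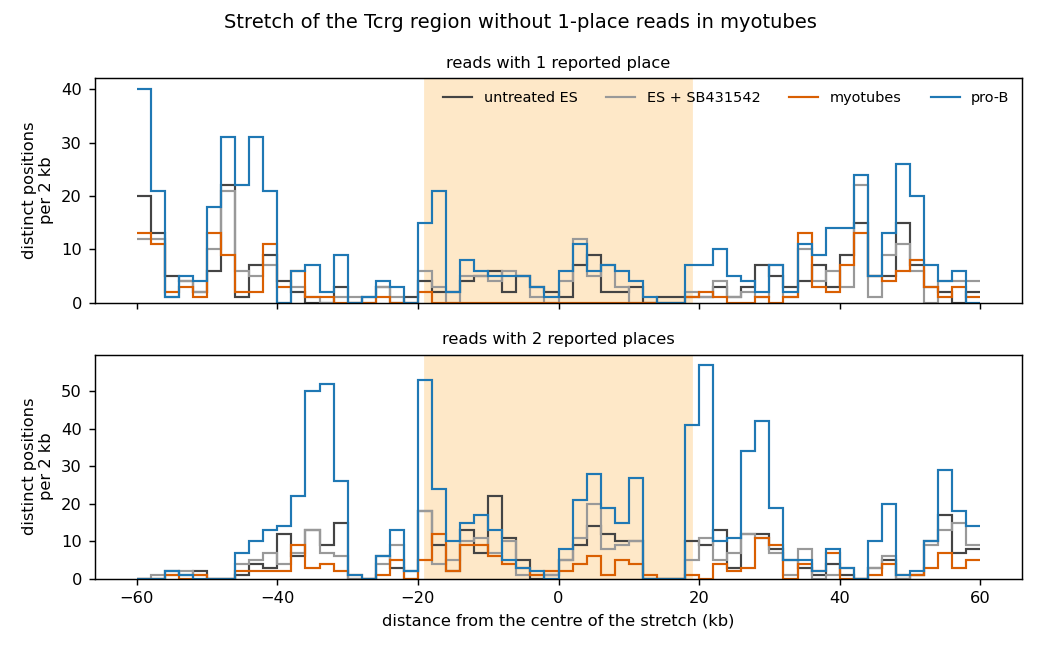
Distinct positions per 2 kb (y axis) by distance from the centre of the 38.0 kb Tcrg stretch (x axis, kb), for reads with 1 reported place (top) and 2 reported places (bottom), with 1 line per library. Inside the shaded stretch myotubes have 0 positions of 1-place reads against 62 in untreated ES and 116 in pro-B cells, while 2-place reads remain listed at 73 positions.

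In the lambda region the pro-B excess lay in several steps. The part chr16:18900001-19200000, also drawn after the profile had been seen, held 1090 positions in untreated ES, 1192 with SB431542, 969 in myotubes and 1944 in pro-B cells. The pro-B ratio was 1.78 (1.66 to 1.92), and 1.09 (1.05 to 1.13) in the rest of the region. The levels were 1.10 in pro-B and 0.619 in untreated ES cells. Reads with 2 places gave 464, 518, 384 and 858 positions, a pro-B ratio of 1.85 (1.65 to 2.07). The highest step, chr16:18900001-18950000, had 238, 235, 191 and 513 positions and a ratio of 2.16 (1.85 to 2.52), a value reached by 1.04% of autosomal steps. All 4 narrow pro-B windows of Igl lay in this step, among them chr16:18941001-18942000 with 7, 7, 1 and 33 positions. Runs of called bins were chr16:18915001-18945000 at 2.41 times the ES level, chr16:18960001-18980000 at 2.37 times and, far from these, chr16:19885001-19900000 at 2.59 times (2.08 to 3.24). The last run had 115, 124, 99 and 298 positions. At the start of the region, chr16:18500001-18550000, pro-B cells were at 0.711 times the ES level (202 against 284 positions). Of the autosomal steps, 3.95% were as low or lower.

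In the beta region the excess was broader and less steep. The part chr6:40800001-41500000, drawn after the profile had been seen, held 2829 positions in untreated ES, 2990 with SB431542, 3049 in myotubes and 3918 in pro-B cells. The pro-B ratio was 1.55 (1.47 to 1.62) there and 1.13 (1.10 to 1.17) in the rest of the region. Set to the autosomal total, the ratio of this part was 1.40. Myotubes were at 1.13 times in the part (1.07 to 1.19). The highest step, chr6:41000001-41050000, had 264, 272, 331 and 447 positions, a pro-B ratio of 1.89 (1.62 to 2.21), reached by 2.45% of autosomal steps. In the step before it, chr6:40950001-41000000, myotubes also had their highest ratio among the ranked steps of the region, 316 against 241 positions or 1.37 times (1.16 to 1.63), where pro-B cells had 393. Below the minimum, chr6:41350001-41400000 had 48 myotube against 34 ES positions (1.48 times, 0.933 to 2.37). The longest run of called bins, chr6:40975001-41020000, was at 2.19 times in pro-B cells, with 228, 250, 305 and 447 positions. Outside the part, the 250 kb step chr6:40250001-40500000 had 1356, 1440, 1311 and 1670 positions, a pro-B ratio of 1.37 (1.28 to 1.48). Its highest 50 kb step, chr6:40350001-40400000, had 296, 298, 295 and 405 positions, or 1.53 times (1.31 to 1.78).

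In the alpha and delta region all 4 libraries shared a stretch of few 1-place reads. From 51500001 to 52750000 on chromosome 14 untreated ES cells had 1015 positions, SB431542 1123, myotubes 803 and pro-B cells 872, which is a level of only 0.143 in untreated ES. Reads with 2 places outnumbered them over the whole stretch, with 2763, 2753, 2063 and 2318 positions. They did not in its last 250 kb, where untreated ES cells had 136 of them against 359 with 1 place. Over the whole region 2-place positions made up 16.8% to 17.7% of all positions in the 4 libraries, against 5.10% to 5.63% on all of chromosome 14. Reads with more than 2 places were left out by the alignment settings. The longest gaps without a 1-place read lay here in each library, from 115 kb with SB431542 to 231 kb in untreated ES, and the other libraries had at most 4 positions in the 231 kb gap. Over the whole stretch the ratio to untreated ES was 1.09 with SB431542 (0.996 to 1.18), 0.818 in myotubes (0.745 to 0.898) and 0.887 in pro-B cells (0.809 to 0.971). By reads with 2 places it was 0.977, 0.772 and 0.866. The first and last 250 kb of the stretch held 431 and 359 of the 1015 untreated ES positions, so the 1-place ratios rest mostly on these ends. In pro-B cells chr14:51750001-52000000 had 30 positions against 59 in untreated ES (0.525 times, 0.326 to 0.828). The next step, chr14:52000001-52250000, had 21 against 46 (0.471 times, 0.267 to 0.8055). Both rest on few positions. In the last step of the stretch, chr14:52500001-52750000, pro-B cells were at 1.01 times, with 352 against 359.

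Outside that stretch the myotube level of Tcra/Tcrd was below that of untreated ES in every 250 kb step. The 13 steps averaging 500 positions or more over the libraries all had a myotube ratio below 1, from 0.781 to 0.951. None passed a log2 ratio of 0.5 either way, a limit that 0.851% (higher) and 0.571% (lower) of the autosomal steps passed. The lowest, chr14:51250001-51500000, had 859 positions in myotubes against 1137 in untreated ES, 1070 with SB431542 and 1010 in pro-B cells. In Tcrg and Igl all 6 steps were below 1 in myotubes as well, and in Tcrb 7 of 8 were above 1. A run of called bins lay at the start of the region, chr14:51020001-51040000, with 69 positions in myotubes against 141 in untreated ES (0.506 times).

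For pro-B cells, 6 of the 33 steps of 250 kb in the 4 regions passed the limit of 0.5 as higher (3 in Tcrb, 2 in Tcrg and 1 in Igl) and 0 as lower, where 11.4% and 2.20% of 9282 autosomal steps did. The highest step of Tcrg, chr13:19250001-19500000, had 1114, 1169, 916 and 1882 positions and a ratio of 1.86 (1.73 to 2.01), reached by 119 autosomal steps (1.28%). The highest of Tcrb was at 1.55 (5.83% of autosomal steps) and of Igl at 1.49 (8.21%). In Tcra/Tcrd 10 of 13 steps were below 1, from 0.823 at chr14:54750001-55000000 to 1.18 at chr14:54500001-54750000.

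In Tcra/Tcrd 18 bins were higher in pro-B cells, and they formed no run of 3. The highest 50 kb step, chr14:53400001-53450000, had 290, 315, 266 and 463 positions (1.65 times, 1.42 to 1.91), a ratio reached by 5.54% of autosomal steps. Its window chr14:53436001-53437000 had 32 positions in pro-B cells against 6, 7 and 9. The window chr14:53380001-53381000 had 39 positions in pro-B cells against 11, 12 and 10. The lowest pro-B bin was chr14:54065001-54070000, with 9 positions against 38, 31 and 36 (0.244 times, 0.104 to 0.514).

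Among the ranked steps the SB431542 library had the narrowest range of ratios to untreated ES. Over these 165 steps of 50 kb its ratio lay between 0.791 and 1.27, with a median of 1.02, where the pro-B ratio ran from 0.711 to 2.92 and the myotube ratio from 0.668 to 1.37. The 25 steps below the minimum went farther, for example chr14:52300001-52350000 with 23 positions with SB431542 against 45 in untreated ES (0.501 times, 0.289 to 0.846). The largest 250 kb value was 1.16 (1.07 to 1.24) at the start of Tcrg, chr13:18500001-18750000, with 1570 against 1331 positions, reached by 0.927% of autosomal steps. Repeats of a position made up 4.86% to 5.42% of the SB431542 reads in the 4 regions and 2.39% to 3.20% in the other libraries. Reads of the minus strand made up 49.1% to 51.7% of positions in every region and library.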

How the data were processed

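Per the file headers, the authors aligned reads to mm8 with Bowtie (no version is stated; seed of 36 bases, at most 2 seed mismatches, mismatch quality limit 70, at most 2 places). The deposited files list 1 signed position per read, minus for the minus strand, in 2 sections, read here as reads with 1 and with 2 places. That reading of the sections is an inference from their names and the aligner settings.

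Here, positions were made distinct per strand, counted in bins of 5 kb and divided by the median bin of the chromosome. That median was interpolated within tied counts and taken over bins with a 1-place read in any library. Bins were called on log2 ratios with 0.5 added to each count, over all autosomes. Runs needed 3 called bins and allowed gaps of 1 bin. Named were the regions, the steps and 5 kb bins with extreme ratios, the runs and the longest stretches without reads. The regions were chosen with earlier results of these data known. The parts of Tcrg, Igl, Tcrb and Tcra/Tcrd, and the rule for 250 kb steps, were set after the profiles had been seen. The scripts (Python 3.11.15, scipy 1.17.1) were tested on simulated data. There the 2-fold rule called 18 of 34 bins with a true 2-fold rise (52.9%) and 6 of 33 with a 1.5-fold rise (18.2%). It also called 1.60% of unchanged bins, in either direction. Base composition was not analysed here, since no mm8 sequence was at hand.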

Additional observations from a re-analysis of the deposited data

How the results depend on the processing

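Of 104 region ratios under alternatives 81 stayed within the counting interval, 23 moved and 0 reversed. Set to the chromosome total, pro-B against untreated ES was 0.891 (Tcra/Tcrd), 1.16 (Tcrb), 1.22 (Tcrg) and 1.12 (Igl), and myotubes against pro-B 0.965, 0.921, 0.760 and 0.818. Set to the autosomal total, pro-B against ES was 0.947 (Tcra/Tcrd), 1.14 (Tcrb) and 1.23 (Tcrg), myotubes against ES 0.880 (Tcra/Tcrd), and myotubes against pro-B 0.929, 0.945 and 0.755. With the SB431542 library as reference, pro-B cells were at 0.991, 1.22 and 1.27 and myotubes at 0.882 (Tcra/Tcrd), 1.03 (Tcrb) and 0.881 (Tcrg). For Tcrg, myotubes against pro-B were 0.659 with both sections and 0.669 with the plain median.

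Shares in brackets are those of the regions and, after them, of all autosomal bins. In the order SB431542, myotubes and pro-B against ES and myotubes against pro-B, higher then lower, a 3-fold limit gave 0 and 2, 0 and 2, 13 and 4, 3 and 29. For pro-B against ES that is near the autosomes (higher 0.872%, 0.824%, lower 0.268%, 0.245%), and for myotubes below pro-B it is above them (1.95%, 1.07%). The 2 lower bins are above the autosomal share with SB431542 (0.134%, 0.0328%) and below it in myotubes (0.134%, 0.180%). The 3 bins higher in myotubes than pro-B cells are below it (0.201%, 0.243%). Where the regions had 0 higher bins, the autosomes had 0.037% (SB431542) and 0.089% (myotubes). A 1.5-fold limit gave 96 and 90 (6.44%, 7.21% and 6.04%, 6.61%), 73 and 193 (4.90%, 9.49% and 12.95%, 9.16%), 276 and 131 (18.52%, 16.46% and 8.79%, 10.8%), 73 and 351 (4.90%, 11.8% and 23.6%, 16.8%). In the same order, bins of 10 kb gave 1 and 0 (higher 0.129%, 0.119%), 0 and 7 (lower 0.903%, 0.442%), 36 and 4 (4.65%, 3.53% and 0.516%, 0.732%), 4 and 42 (0.516%, 0.936% and 5.42%, 4.07%). A minimum of 20 gave 4 higher with SB431542 (0.313%, 0.583%), 5 and 23 in myotubes (0.392%, 1.29% and 1.80%, 1.27%) and 17 lower in pro-B cells (1.33%, 1.94%). A minimum of 5 gave 19 and 23 with SB431542 (1.19%, 1.202% and 1.44%, 1.00%) and 16 and 60 in myotubes (1.00%, 1.85% and 3.76%, 2.02%). With the chromosome total 44 bins were lower in pro-B than ES cells (2.95%, 3.84%) and 28 higher in myotubes than pro-B cells (1.88%, 4.07%). Narrow windows at 2 times the highest other library numbered 59 for pro-B, 1 for untreated ES and 2 for SB431542. No autosomal share was computed at this limit, so these counts cannot be called more or less than the background. With both sections the myotube stretch was no longer empty (0 stretches), and with both more than 10 kb and at least 30 positions in each other library required, the pro-B stretch dropped out (0). The causes of these shifts were not tested. Depth limits single 5 kb bins, which hold few positions.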
